A study of Macaca mulatta with 36 samples.

Results

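CD8A, CD8B, GZMB, JCHAIN and TNFSF13B are 5 genes of lymphocytes and their support, which were measured by 9 probe sets among the 52865 in the table and are 5 of 14132 named genes. A probe set was taken as a member when its single gene symbol in the platform's probe-to-gene table was one of these symbols. No measured value thus entered the choice of probe sets within a gene, but the 5 genes were chosen with earlier results of these data known. CD8A, CD8B, JCHAIN and TNFSF13B have a pair of probe sets each, called brighter and dimmer below by their mean over all animals, and GZMB has 1. The data are Affymetrix rhesus array signals from total RNA of the hippocampus of 18 male rhesus macaques, with 2 arrays for each animal and 36 in all. Of these animals 9 are labelled SIVE, that is, they had encephalitis from simian immunodeficiency virus, and the other 9 are uninfected controls. The labels give these groups: 4 SIVE animals labelled as given anti-CD8 (SIVE 1 to SIVE 4, all 6 years old), 5 SIVE animals labelled as not treated (SIVE 5 to SIVE 9, 2 to 5 years old), 2 anti-CD8 controls (Control 8 and Control 9, 3 to 4 years old) and 7 untreated controls (Control 1 to Control 7, 3 to 8 years old). The labels do not state the dose, timing or clone of the antibody, or how many CD8 cells the treated animals still had.

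Anti-CD8 antibodies are used in macaques to remove cells that carry CD8 from the blood, which takes away the antiviral T cell response and part of the natural killer (NK) cells. CD8A and CD8B encode the chains of CD8, the co-receptor with which cytotoxic T cells bind MHC class I. CD8A can pair with itself and is then also found on NK cells, whereas CD8B is largely limited to T cells. GZMB encodes granzyme B, a protease that cytotoxic T cells and NK cells store in granules and pass into target cells through perforin pores. JCHAIN encodes the joining chain that links IgM and IgA into polymers in plasma cells. TNFSF13B encodes BAFF, a cytokine made mainly by myeloid cells, and in the brain also by astrocytes, which keeps B cells alive through the receptors TNFRSF13C, TNFRSF13B and TNFRSF17.

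All values are log2 signals, as the authors deposited them after RMA, with the 2 arrays of an animal averaged. Array medians lay between 5.59 and 5.75. Of 10 listed hippocampal neuron genes 8 were measured, and SYT1, a synaptic vesicle protein, averaged 12.03 to 12.26 over the 4 groups and PROX1, a marker of dentate granule cells, 8.35 to 8.66. In SIVE 2, SIVE 3 and Control 8, all treated, the signal at the 3′ end of GAPDH, ACTB and EEF1A1, which the array reads at both ends, exceeded that at the 5′ end by 0.955 to 1.45, as happens when RNA is partly degraded, against 0.104 to 0.466 in the other 15 animals. This difference averaged 0.690 ± 0.579 (SD, n = 6) in anti-CD8 animals and 0.297 ± 0.0805 (SD, n = 12) in untreated animals (exact two-sided permutation p = 0.0243). Within SIVE the exact permutation p was 0.254 and within controls 0.222, where 2 against 7 animals cannot go below 0.0278. The duplicate arrays of Control 9 disagreed most for 4 of the 9 member probe sets, by up to 1.04. The treated control group therefore holds 1 animal of high 3′ signal and 1 of discordant arrays. In whole tissue, fewer cells of a type and less RNA per cell cannot be told apart.

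The members stood at very different distances from background. The array has 59 probe sets for reporter genes, which macaque RNA should not contain, and their means ran from 2.55 to 6.11 with a 95th percentile of 5.39. Both TNFSF13B probe sets, at 7.75 and 7.37 over all animals, and the brighter CD8A probe set, at 6.34, lay above all 59. GZMB, at 5.98, lay below 1 of them, the brighter CD8B probe set, at 5.54, below 2, the brighter JCHAIN probe set, at 5.41, below 3, and the dimmer CD8A probe set, at 4.82, below 7. The dimmer CD8B probe set, at 3.48, lay below 33, and the dimmer JCHAIN probe set, at 2.79, below 57. Levels of different probe sets depend on their probe sequences as well as on RNA, so this sets the members against background and not against each other.

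CD8A did not separate the groups at either probe set. At the brighter one (MmugDNA.5711.1.S1_at) the anti-CD8 SIVE animals SIVE 1 to SIVE 4 had 6.10, 6.36, 6.19 and 5.72, and the untreated SIVE animals SIVE 5 to SIVE 9 had 6.62, 6.17, 6.86, 5.76 and 6.74. Control 8 and Control 9 had 6.57 and 5.91, and the untreated controls ran from 5.78 to 6.83 with a median of 6.60. All 4 groups overlapped: SIVE 6 and SIVE 8, untreated, lay among the treated SIVE animals, and Control 1 and Control 2, untreated, were at 5.94 and 5.78. Anti-CD8 minus none was -0.34 ± 0.25 (SE) in SIVE (95% interval -0.87 to 0.20; limma adjusted p = 0.515) and -0.21 ± 0.30 in controls (-0.85 to 0.42; adjusted p = 0.706). The intervals allow anti-CD8 animals to be as low as 0.548-fold and as high as 1.15-fold of untreated ones in SIVE, so a moderate loss of CD8A transcript could not be seen in these animals. SIVE minus control was -0.02 ± 0.22 without anti-CD8 (adjusted p = 0.969) and -0.14 ± 0.33 with it (adjusted p = 0.864).

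The dimmer CD8A probe set stood at 4.84, 4.61, 4.68 and 4.55 in the anti-CD8 SIVE animals, and at 4.81, 4.89, 4.99, 4.69 and 4.81 in the untreated SIVE animals. SIVE 2, SIVE 3 and SIVE 4 thus lay below all 5 untreated SIVE animals and SIVE 1 among them. Control 8 and Control 9 had 4.99 and 4.55, and untreated controls ran from 4.52 to 5.25 with a median of 4.95. Anti-CD8 minus none was -0.16 ± 0.13 in SIVE (95% interval -0.45 to 0.12; adjusted p = 0.556) and -0.13 ± 0.16 in controls (adjusted p = 0.664). The pair of CD8A probe sets varied together between animals, with Pearson's r of 0.88 over the 9 controls and 0.64 over the 9 SIVE animals, given as a description since the values share arrays.

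The CD8B differences were small. Its brighter probe set (MmugDNA.16367.1.S1_at) had 5.34, 5.57, 5.55 and 5.53 in the anti-CD8 SIVE animals and 5.60, 5.42, 5.46, 5.50 and 5.42 in the untreated SIVE animals, so these groups overlapped fully. Control 8 and Control 9 had 5.80 and 5.89, and the untreated controls ran from 5.36 to 5.72 with a median of 5.47. The treated controls thus lay above all 16 other animals, although they were labelled as given an antibody against CD8. Anti-CD8 minus none was 0.34 ± 0.09 in controls (95% interval 0.14 to 0.53), with an adjusted p of 0.297 and an unadjusted p of 0.00202. In the treated animals SIVE minus control was -0.35 ± 0.10 (adjusted p = 0.111). The 2 arrays of Control 9 differed by 0.948 at this probe set, more than the whole range of animal means, and the duplicate arrays of all animals had an SD of 0.221, against 0.102 between the animals of a group. Without Control 5, the highest untreated control, the control difference was 0.37 (limma adjusted p = 0.0427) and the SIVE difference in treated animals -0.35 (adjusted p = 0.0389). For anti-CD8 minus none in controls, the second arrays alone gave 0.67 (limma adjusted p = 0.0497) and the first arrays alone 0.01 (adjusted p = 0.993), so the CD8B difference rests on the second arrays.

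The dimmer CD8B probe set (MmugDNA.37234.1.S1_at) lay within the range of the reporter probe sets in all groups, between 3.27 and 3.75. It had means of 3.49 ± 0.18 (SD, n = 4) in anti-CD8 SIVE, 3.37 ± 0.10 (n = 5) in untreated SIVE, 3.52 ± 0.17 (n = 2) in anti-CD8 controls and 3.54 ± 0.07 (n = 7) in untreated controls. Without anti-CD8, 4 of the 5 SIVE animals lay below all 7 controls, with a difference of -0.17 ± 0.08 (SE; 95% interval -0.32 to -0.01), an unadjusted p of 0.0422 and a limma adjusted p of 0.263. At the brighter probe set the same difference was -0.03 ± 0.07 (adjusted p = 0.838). The dimmer probe set did not repeat the treated controls' position at the brighter one: anti-CD8 minus none in controls was -0.02 ± 0.10 (limma adjusted p = 0.945). Over the 9 controls the pair had a Pearson's r of -0.08.

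**Figure D1:**
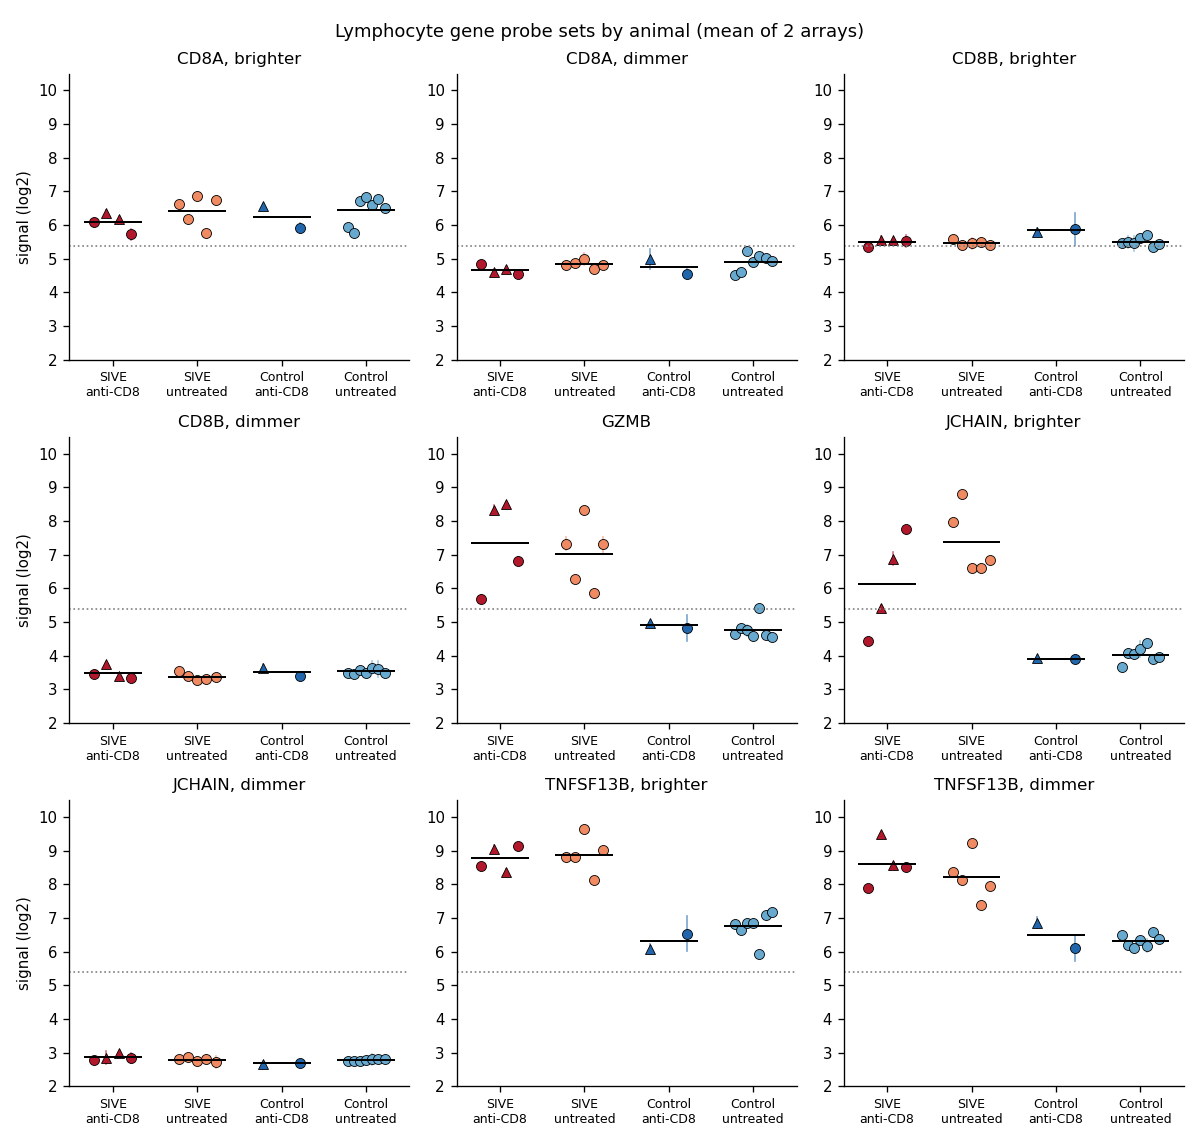
Log2 signal (vertical axis) of the 9 member probe sets in the 4 groups (horizontal axis). Each symbol is the mean of an animal's 2 arrays and the thin line behind it joins these arrays, triangles mark the 3 animals of high 3′ signal, the bar is the group mean, and the dotted line is the 95th percentile of the reporter probe sets (5.39). GZMB, the brighter JCHAIN probe set and both TNFSF13B probe sets lie higher in SIVE animals than in controls, treated and untreated. The CD8A and CD8B groups lie close together, with both treated controls above all other animals at the brighter CD8B probe set.

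GZMB rose in untreated SIVE animals and varied widely among them. Its probe set (MmugDNA.14204.1.S1_at) read 7.32, 6.28, 8.32, 5.86 and 7.31 in SIVE 5 to SIVE 9, against 4.55 to 5.43 with a median of 4.64 in the 7 untreated controls. All 5 lay above all 7, and the difference was 2.25 ± 0.44 (SE; 95% interval 1.32 to 3.18), or 4.76-fold (limma adjusted p = 0.00647). The untreated controls, apart from Control 5 at 5.43, stayed below 5, under the reporter 95th percentile, so the fold is measured against a signal close to background and can understate the change. In the anti-CD8 SIVE animals GZMB was at 5.70, 8.34, 8.50 and 6.82, against 4.96 and 4.83 in the anti-CD8 controls. Those 4 lay above both controls, and the difference of 2.44 ± 0.65 was as large as without anti-CD8 but missed the threshold (95% interval 1.06 to 3.82; limma adjusted p = 0.0910).

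The treated SIVE animals stood far apart from each other. SIVE 1 had the lowest GZMB of all 9 SIVE animals and SIVE 2 and SIVE 3, the animals of high 3′ signal, had the highest. Without SIVE 1 the treated difference was 2.99 (limma adjusted p = 0.0111), and with the 3′ signal as a covariate 2.66 (adjusted p = 0.0219). Without SIVE 2, SIVE 3 and Control 8 it was 1.42 (adjusted p = 0.352), with 2 treated SIVE animals and 1 treated control left. Within SIVE, anti-CD8 minus none was 0.32 ± 0.51 (95% interval -0.75 to 1.39; adjusted p = 0.785), so the treated animals could lie anywhere from 0.596-fold to 2.62-fold of the untreated ones. Without the 3 animals of high 3′ signal its sign turned, to -0.76 (limma adjusted p = 1.00). The SIVE effects with and without anti-CD8 differed by 0.19 ± 0.79 (unadjusted p = 0.813, adjusted p = 1.00), a difference not detectable with these animals.

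JCHAIN rose most of the members without anti-CD8. The brighter probe set (MmunewRS.816.1.S1_s_at) read 7.96, 8.79, 6.62, 6.61 and 6.84 in SIVE 5 to SIVE 9, against 3.67 to 4.36 with a median of 4.04 in untreated controls. The groups lay far apart, and the difference was 3.33 ± 0.46 (SE; 95% interval 2.35 to 4.31), or 10.1-fold (limma adjusted p = 0.000260). All 9 controls lay under the reporter 95th percentile, so this fold too can be understated. In the anti-CD8 SIVE animals it was at 4.44, 5.42, 6.88 and 7.76, against 3.94 and 3.89 in the anti-CD8 controls. SIVE 1 lay just above the highest untreated control, Control 5 at 4.36, while SIVE 4 lay among the highest SIVE animals.

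The treated JCHAIN difference was 2.21 ± 0.69 (95% interval 0.76 to 3.66; limma adjusted p = 0.146), and without SIVE 1 it was 2.77 (adjusted p = 0.0311). Within SIVE, the JCHAIN difference between anti-CD8 and none was -1.24 ± 0.53 (95% interval -2.36 to -0.12), or 0.423-fold, with an unadjusted p of 0.0321 and a limma adjusted p of 0.312. SIVE 1 and SIVE 2 lay below all 5 untreated SIVE animals and SIVE 3 and SIVE 4 among them, and without SIVE 1 the difference was -0.68 (limma adjusted p = 0.423). The difference between the SIVE effects was -1.12 ± 0.83 (95% interval -2.87 to 0.63; adjusted p = 1.00). The suffix of this probe set marks, in Affymetrix's naming, probes that match several transcripts. The dimmer JCHAIN probe set (MmugDNA.16772.1.S1_at) gave no like signal: it ranged from 2.67 to 2.98 over all animals, below 57 of the 59 reporter means, with a SIVE difference of 0.02 ± 0.05 without anti-CD8 (limma adjusted p = 0.881) and of 0.19 ± 0.07 with it (adjusted p = 0.236). The JCHAIN rise therefore rests on 1 of its probe sets.

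TNFSF13B was the member whose rise passed in both treatment settings and at both probe sets. At the brighter one (MmugDNA.635.1.S1_at) the anti-CD8 SIVE animals had 8.53, 9.05, 8.36 and 9.14, against 6.07 and 6.53 in the anti-CD8 controls. The untreated SIVE animals had 8.80, 8.81, 9.65, 8.13 and 9.01, against 5.92 to 7.18 with a median of 6.84 in untreated controls. The lowest SIVE animal, SIVE 8 at 8.13, lay above the highest control, Control 7 at 7.18. The difference was 2.47 ± 0.35 (SE) or 5.55-fold with anti-CD8 (95% interval 1.73 to 3.21; limma adjusted p = 0.000868) and 2.12 ± 0.24 or 4.33-fold without it (1.61 to 2.62; adjusted p = 2.40e-05).

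At the dimmer TNFSF13B probe set (MmugDNA.31841.1.S1_at) the anti-CD8 SIVE animals had 7.90, 9.49, 8.56 and 8.51, against 6.85 and 6.10 in the anti-CD8 controls. The untreated SIVE animals had 8.36, 8.11, 9.23, 7.38 and 7.96, against 6.10 to 6.58 with a median of 6.34 in untreated controls. The groups again did not overlap, with differences of 2.14 ± 0.40 with anti-CD8 (limma adjusted p = 0.0113) and 1.88 ± 0.27 without it (adjusted p = 0.000356). The SIVE effects with and without anti-CD8 differed by 0.36 ± 0.42 at the brighter probe set (95% interval -0.54 to 1.25) and 0.26 ± 0.48 at the dimmer one (-0.76 to 1.27), both with an adjusted p of 1.00. Within SIVE, anti-CD8 minus none was -0.11 ± 0.27 and 0.41 ± 0.31 (limma adjusted p = 0.872 and 0.522), so the sign differed between the probe sets. Without the 3 animals of high 3′ signal the treated differences were 2.31 and 2.10, nearly unchanged in size, but with 6 treated animals cut to 3 they missed the threshold (limma adjusted p = 0.0660 and 0.0832). The dimmer probe set also missed it with age as a covariate, at 1.89 (limma adjusted p = 0.161). So it did with a quality weight for each animal, at 2.17 (limma adjusted p = 0.195). With the replicate number as a block both missed it, the brighter at 1.89 and the dimmer at 1.33 (limma adjusted p = 0.424 and 0.589). Without Control 9, which leaves 1 treated control, the difference at the dimmer probe set was 1.76.

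**Figure D2:**
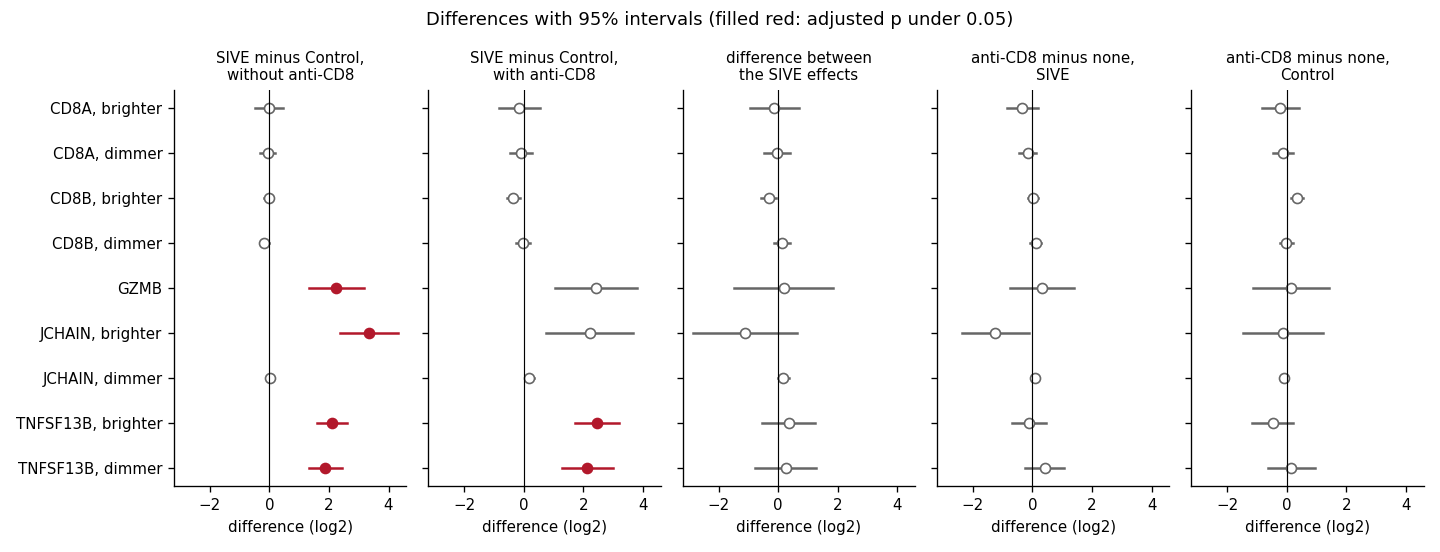
Differences on the log2 scale (horizontal axes) of the 9 member probe sets (rows) in 5 comparisons, with 95% intervals from limma. Filled red points passed the adjusted threshold of 0.05: 4 of 9 for SIVE minus control without anti-CD8, 2 of 9 with it, and 0 in the other 3 panels.

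Counted over the members, 4 of 9 probe sets (of GZMB, JCHAIN and TNFSF13B) were called in SIVE against control without anti-CD8, each higher, where 2.34% of all 52707 tested probe sets were called higher. In the same 4, every untreated SIVE animal lay above every untreated control, as in 2.53% of all probe sets. With anti-CD8, 2 of 9 were called, both of TNFSF13B, where 0.844% of all probe sets were called higher. Every treated SIVE animal lay above both treated controls in 5 of 9, against 5.99% of all probe sets. Since the members were picked with such results known, these counts describe the members and are no evidence beyond the values above. These comparisons share animals with those of anti-CD8 against none, so they are set side by side only.

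Anti-CD8 against none gave 0 called members by limma in SIVE, 0 in controls and 0 for the difference between the SIVE effects. Of all probe sets, 0.0019% (1 of 52707), 0% and 0% were called in these 3 comparisons. At an unadjusted limma p under 0.05 there was 1 of 9 member probe sets in each. It was JCHAIN within SIVE, and CD8B within controls and for the difference between the SIVE effects, each at the brighter probe set. Of all 52707 probe sets, 8079, 8266 and 1481 fell under the same cut in these 3 comparisons. Within SIVE and within controls, 1 of 9 is thus no more than the share over all probe sets. Fitted on every array, with the correlation of an animal's arrays estimated in place of averaging them, limma called 1930 probe sets for anti-CD8 within SIVE, and still 0 members. Anti-CD8 goes with age in the SIVE animals (6 years in all 4 treated, 2 to 5 in the untreated), and treatment and age cannot be told apart there.

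The other genes of the members' cell types and pathways were taken from lists, each gene at its brightest probe set. Over all 14132 named genes, limma called 3.64% higher and 1.13% lower in SIVE against control without anti-CD8, and 1.38% and 0.127% with anti-CD8. The median differences over all genes were -0.03 and -0.02. T cell genes showed no rise: of 19 listed 7 were measured, and 0 passed in either comparison, with median differences of -0.08 without and -0.20 with anti-CD8. CD6, an adhesion receptor of T cells, stood at 6.28 ± 0.14 (SD, n = 4) in anti-CD8 SIVE, 6.18 ± 0.10 (n = 5) in untreated SIVE, 6.58 ± 0.07 (n = 2) in anti-CD8 controls and 6.38 ± 0.15 (n = 7) in untreated controls. The CD3 chains, CD2 and LCK were not analysed here, as no probe set carries those symbols in the table of names.

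Of 18 listed genes of cytotoxic lymphocytes 16 were measured, and only CCL5 passed. CCL5, a chemokine released by activated T cells and also by myeloid cells, was at 6.57 ± 0.53 (SD, n = 5) in untreated SIVE and 5.61 ± 0.38 (n = 7) in untreated controls, a rise of 0.96 ± 0.23 (SE; limma adjusted p = 0.0249). With anti-CD8 it was at 6.99 ± 0.41 (n = 4) in SIVE and 5.84 ± 0.07 (n = 2) in controls, with a difference of 1.15 ± 0.33 (adjusted p = 0.121). NKG7, a granule membrane protein, ranged from 4.59 to 5.45 in untreated SIVE and from 4.50 to 4.68 in untreated controls, a difference of 0.38 ± 0.15 (adjusted p = 0.206). The list's median difference was 0.02 without and -0.07 with anti-CD8, close to those over all genes. CST7, CRTAM, CTSW, EOMES, FASLG, GZMH, IFNG, KLRK1 and NKG7 averaged 3.43 to 5.11 over all animals, under the reporter 95th percentile of 5.39. Changes at such levels can be understated, so the median does not show that cytotoxic genes stayed unchanged. GZMH, the granzyme closest in sequence to granzyme B in humans, differed by 0.17 ± 0.12 (adjusted p = 0.466), and IFNG, the interferon of T and NK cells, by -0.01 ± 0.07 at a level of 3.42 ± 0.11 (n = 5) in untreated SIVE. The probe sets named GZMA, at 9.20 ± 0.67 (SD, n = 7), GZMK, at 10.38 ± 0.12 (n = 7), KLRC1, at 11.18 ± 0.21 (n = 7), and KLRD1, at 9.34 ± 0.13 (n = 7), were bright already in the untreated controls. The brains of these controls should hold few cytotoxic cells, and what these probe sets read was not tested.

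Of 11 NK cell genes 7 were measured and 0 passed in either comparison, with medians of 0.01 without and -0.07 with anti-CD8. KLRF1 (3.05), CD244 (5.17) and SH2D1B (5.32) averaged under the reporter 95th percentile of 5.39, where changes can be understated. XCL1, a chemokine of NK and CD8 T cells, stood at 5.59 ± 0.31 (n = 4) in anti-CD8 SIVE and 6.06 ± 0.33 (n = 5) in untreated SIVE, a difference of -0.47 ± 0.19 (SE; limma adjusted p = 0.307). Among genes that store, move or restrain granzymes 9 of 12 were measured and 1 passed in each comparison. It was SRGN, the proteoglycan on which granzymes are packed and which myeloid and endothelial cells make too: 10.88 ± 0.30 (n = 4) in anti-CD8 SIVE against 8.83 ± 0.11 (n = 2) in anti-CD8 controls, and 10.51 ± 0.36 (n = 5) in untreated SIVE against 9.08 ± 0.30 (n = 7) in untreated controls. It rose by 2.06 ± 0.25 (limma adjusted p = 0.000183) with anti-CD8 and by 1.43 ± 0.17 (adjusted p = 4.16e-05) without it. SERPINB9, the inhibitor of granzyme B, differed by 0.70 ± 0.24 with anti-CD8 (adjusted p = 0.180) and 0.23 ± 0.16 without it (adjusted p = 0.467).

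Of 20 genes of B and plasma cells 13 were measured, with 0 called without anti-CD8 and 1 higher with it, and median differences of -0.11 in both. MS4A1, TNFRSF17, IRF4, PIGR and PRDM1 averaged 3.52 to 4.85, under the reporter 95th percentile of 5.39, where changes can be understated. CD79B, a chain of the B cell receptor complex, was at 6.98 ± 0.16 (n = 5) in untreated SIVE and 7.32 ± 0.19 (n = 7) in untreated controls (-0.33 ± 0.10, SE; limma adjusted p = 0.0734). MZB1, an endoplasmic reticulum protein of antibody-secreting cells, was at 5.94 ± 0.23 and 5.82 ± 0.11 in the same groups (adjusted p = 0.533), and the plasma cell surface marker SDC1 at 6.00 ± 0.11 and 5.98 ± 0.14 (adjusted p = 0.866). The gene called with anti-CD8 was PRDM1, the transcription factor that drives plasma cell formation and acts in T cells and myeloid cells too. It was at 5.41 ± 0.49 (n = 4) in anti-CD8 SIVE and 4.28 ± 0.38 (n = 2) in anti-CD8 controls, a rise of 1.12 ± 0.25 (limma adjusted p = 0.0333), against 5.04 ± 0.17 (n = 5) and 4.57 ± 0.24 (n = 7) in the untreated groups (adjusted p = 0.151). Immunoglobulin heavy and light chain genes and PAX5 were not analysed here, since no probe set carries their listed symbols.

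Around TNFSF13B, the ligand moved and its receptors did not pass. TNFRSF13C, the BAFF receptor proper, was at 5.48 ± 0.08 (n = 5) in untreated SIVE and 5.67 ± 0.11 (n = 7) in untreated controls (limma adjusted p = 0.183). TNFRSF13B was at 7.63 ± 0.07 and 7.85 ± 0.13 in the same groups (adjusted p = 0.109), and TNFRSF17, the receptor of plasma cells, at 3.58 ± 0.13 and 3.46 ± 0.09 (adjusted p = 0.395), within the reporter range. Of 12 genes of BAFF and APRIL signalling 9 were measured, and 1 was called higher in each comparison. It was BIRC3, an inhibitor of apoptosis that sits in the receptor complex and is itself an NF-κB target: 5.48 ± 0.40 (n = 4) in anti-CD8 SIVE against 4.22 ± 0.57 (n = 2) in anti-CD8 controls, and 6.13 ± 0.35 (n = 5) in untreated SIVE against 4.71 ± 0.27 (n = 7) in untreated controls. It rose by 1.26 ± 0.28 (adjusted p = 0.0362) and by 1.42 ± 0.19 (adjusted p = 0.000178).

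**Figure D3:**
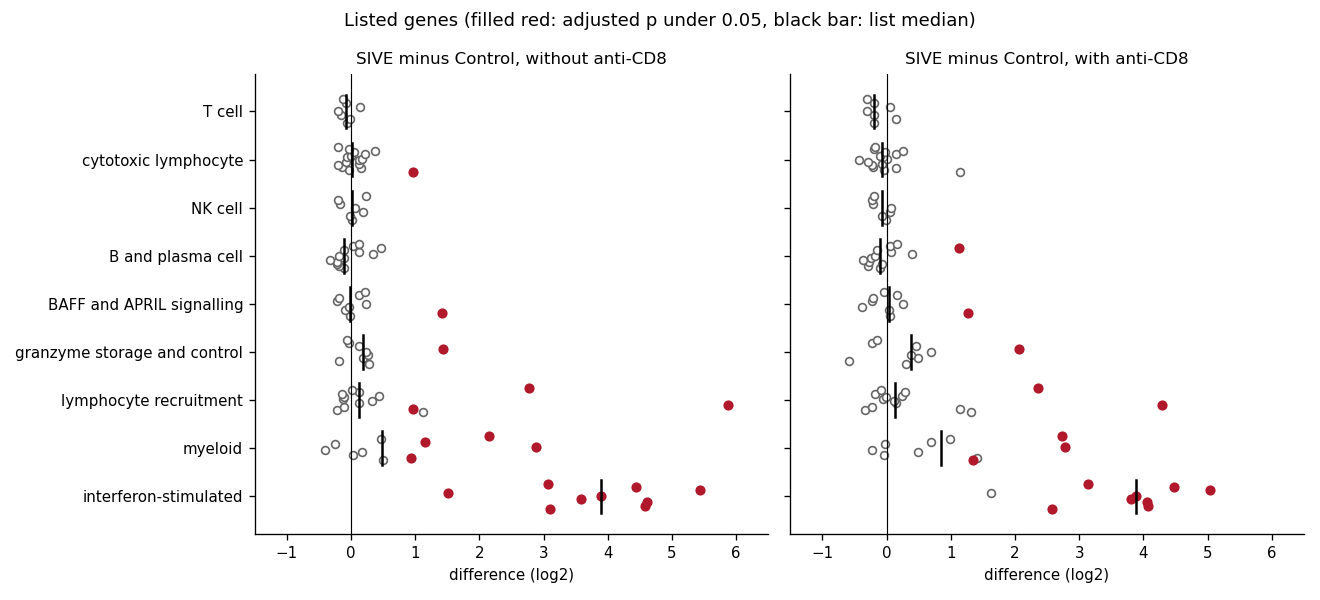
Log2 difference (horizontal axes) between SIVE and control animals without anti-CD8 (left) and with it (right) for the measured genes of 9 lists (rows), each at its brightest probe set. Filled red points passed the adjusted threshold, and black bars are list medians, which lie between -0.11 and 0.19 for the first 7 lists on the left and at 3.89 for interferon-stimulated genes.

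Of 17 genes that draw lymphocytes into tissue 14 were measured, and 3 were called higher without anti-CD8 (CXCL10, CCL5 and VCAM1) and 2 with it (CXCL10 and VCAM1), with median differences of 0.12 and 0.13. CXCL10, which attracts activated T cells through CXCR3, was at 9.07 ± 0.60 (n = 4) in anti-CD8 SIVE and 10.55 ± 0.93 (n = 5) in untreated SIVE, a difference of -1.48 ± 0.36 (SE; limma adjusted p = 0.304). Its receptor CXCR3 was at 5.68 ± 0.17 (n = 5) in untreated SIVE and 5.81 ± 0.09 (n = 7) in untreated controls (adjusted p = 0.447). CXCL13, the chemokine that attracts B cells, was at 6.45 ± 0.39 and 6.57 ± 0.25 in the same groups (adjusted p = 0.720).

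Markers of other cells moved beside the members. Of 12 myeloid genes 10 were measured, and 4 rose without anti-CD8 (LYZ, VSIG4, MS4A7 and CD14) and 3 with it (LYZ, VSIG4 and AIF1), with median differences of 0.48 and 0.85. The difference was above 0 in 8 of the 10 without anti-CD8 and in 7 with it. ITGAM differed by -0.40 without and -0.23 with anti-CD8, MRC1 by -0.24 and -0.02, and CD68 by 0.03 and -0.04, none of them called. The mean level over the 10 myeloid genes ran from 8.62 to 9.08 in anti-CD8 SIVE, 8.27 to 8.73 in untreated SIVE, 7.69 to 8.00 in anti-CD8 controls and 7.40 to 8.02 in untreated controls, so no SIVE animal lay below any control. All 9 measured interferon-stimulated genes of 10 listed rose without anti-CD8, with a median of 3.89, and 8 with it. Their mean level ran from 10.57 to 11.33, 10.33 to 11.41, 7.23 to 7.57 and 6.92 to 7.36 in the same 4 groups. The part of either list in the TNFSF13B, GZMB and JCHAIN differences was not tested. Of 5 listed red blood cell genes, a sign of blood left in the tissue, 2 were measured. HBB and ALAS2 differed by -0.05 and -0.16 without anti-CD8 (limma adjusted p = 0.851 and 0.303). HBB averaged 5.19, under the reporter 95th percentile of 5.39, and ALAS2 5.77, under the highest reporter mean of 6.11. At such levels they cannot show whether the groups differed in blood left in the tissue.

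The order of the SIVE animals depended on the member and, for TNFSF13B, on the probe set. SIVE 1 was lowest of the 9 for GZMB and for JCHAIN but not for TNFSF13B, where SIVE 8 was lowest at both probe sets. SIVE 6 had the highest JCHAIN and the third lowest GZMB, while SIVE 3 had the highest GZMB, the second lowest TNFSF13B at the brighter probe set and the third highest at the dimmer one. Over the 9 SIVE animals GZMB and JCHAIN had a Pearson's r of 0.01 (Spearman's rho 0.13, exact permutation p = 0.987 and 0.744). Without SIVE 1 and SIVE 8, the animals farthest from the GZMB median, r was -0.83, and without SIVE 2 and SIVE 3 it was 0.27. GZMB and the brighter TNFSF13B probe set had an r of 0.48 (rho 0.30, exact permutation p = 0.199 and 0.437). This r was 0.06 without SIVE 1 and SIVE 8 and 0.87 without SIVE 2 and SIVE 3. With the dimmer TNFSF13B probe set GZMB had an r of 0.82 (rho 0.85; exact permutation p = 0.00699 and 0.00607), which was 0.71 without SIVE 1 and SIVE 8 and 0.83 without SIVE 2 and SIVE 3. Adjusted over all 32 pairs of probe sets of different members, a family added after the values were seen, these p-values were 0.224 and 0.194, the smallest of the 32. The brighter CD8A probe set had an r of 0.57 with GZMB (rho 0.60; exact permutation p = 0.111 and 0.0968) and of 0.58 with the brighter TNFSF13B probe set (rho 0.38; exact permutation p = 0.0978 and 0.313). At the dimmer CD8A probe set these were -0.06 (rho -0.27) and 0.31 (rho 0.08), so the relation to GZMB was not seen at both. Of the 10 pairs of members at their brighter probe sets 0 passed and 0 had an unadjusted p under 0.05, and the smallest p adjusted over the 10 was 0.391 for Pearson's r and 0.484 for rho.

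**Figure D4:**
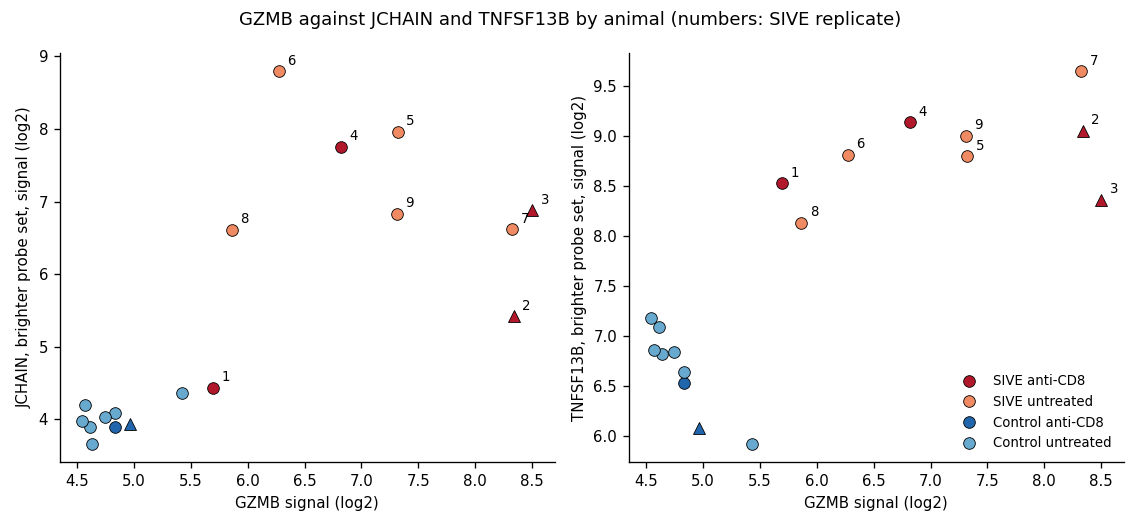
Log2 signal of GZMB (horizontal axes) against the brighter probe sets of JCHAIN (left) and TNFSF13B (right), 1 symbol for each animal, with SIVE animals numbered and triangles for animals of high 3′ signal. SIVE 1 lies beside the controls on the left (GZMB 5.70, JCHAIN 4.44) and with the other SIVE animals on the right (TNFSF13B 8.53).

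The genes that followed each member, at its brighter probe set, most closely over the 9 SIVE animals were picked from the 9768 named genes that reach the median signal in a group, as the 3 of highest Pearson's r, so these values are descriptions of the top of a long list. For TNFSF13B they were TRIM21, an antibody receptor in the cytosol induced by interferon (r = 0.95), the diamine oxidase AOC1 (0.94) and the signal peptidase subunit SEC11A (0.93). All 3 rose in SIVE without anti-CD8, TRIM21 by 1.43, AOC1 by 1.61 and SEC11A by 0.34 (limma adjusted p = 7.36e-08, 2.12e-06 and 0.00156). For GZMB they were MSN, the actin linker moesin found in leukocytes and endothelium (0.95), HPS3, a protein of lysosome-related organelle formation (0.95), and the flippase ATP9B (0.93), of which MSN rose by 0.91 (adjusted p = 0.00304).

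For JCHAIN the closest genes were RIDA (r = 0.94), MYPN (0.87) and SOX2, a transcription factor of neural stem cells (0.86), none of which passed in SIVE against control (limma adjusted p from 0.157 to 0.935 without anti-CD8). For CD8A they were ALG8, an enzyme of protein glycosylation (0.90), the ephrin receptor EPHA1 (0.86) and IDO1, which breaks down tryptophan (0.85). IDO1 rose by 3.36 without anti-CD8 (limma adjusted p = 2.96e-05), while CD8A itself did not differ beyond the spread between animals. For CD8B they were HIKESHI, SLC50A1 and the metallothionein MT1E (0.88, 0.87 and 0.87), none of which passed (limma adjusted p from 0.444 to 0.654 without anti-CD8).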

How the data were processed

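Total RNA (Trizol, biotin labelling) from 36 arrays of 18 animals was analysed. Per the submitters' processing notes the authors used RMA, and the deposited values are log2 signals. Probe sets were named from the platform's table by single symbol, and 158 control and reporter probe sets were left out, leaving 52707. The 2 arrays of an animal were averaged, and the labels do not say whether they come from separate pieces of tissue. limma 3.58.1 fitted the mean of each of the 4 groups over all 18 animals, with p-values adjusted by Benjamini-Hochberg across the 52707 probe sets, a threshold of 0.05 and 95% intervals. The fit was tested on simulated data. A gene with several probe sets is shown at its brightest, except for the members, which are shown at each. Named genes are the members, the 3 genes of smallest adjusted p in each list without anti-CD8 and for anti-CD8 within SIVE, list genes called elsewhere, and the 3 genes of highest Pearson's r with each member. CXCL13, GZMH, IFNG, MZB1, SDC1, SERPINB9 and TNFRSF17 fall outside this rule and were chosen for their roles after their values were seen. CD68, CRTAM, CST7, CTSW, EOMES, FASLG, GZMA, ITGAM, KLRK1 and MRC1 fall outside it too and were named for their values. So do CD4, CD28, CD244, IRF4, KLRF1, MS4A1, PIGR and TRAT1, named for their levels. Members and lists were chosen with earlier results of these data known. Precision is limited by the number of animals. Alternatives included the array averaging, scaling, animal quality weights, 3′ signal, age, a replicate block and leaving out each animal.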

Additional observations from a re-analysis of the deposited data

Results flagged for a closer look

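Control 5, an untreated control, stood apart from the other 6 untreated controls for GZMB and for TNFSF13B at its brighter probe set only. Its GZMB was 5.43, the highest of the 7, with the next at 4.83. Its TNFSF13B at the brighter probe set was 5.92, the lowest of the 7, with the nearest at 6.64. In both, the gap to the nearest animal was an unusually large share of the group's range (0.677 and 0.574). At the dimmer TNFSF13B probe set Control 5 was at 6.18, within the untreated controls' range of 6.10 to 6.58. Of 27 groups searched 2 were marked, where chance marks about 1 in 20.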

How the results depend on the processing

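The 45 member differences were run under 31 alternatives, or 30 for the dimmer probe sets of CD8A, CD8B and JCHAIN. They kept their direction wherever they were called, and 9 values newly passed the threshold and 8 lost it. Among the 9 is the mean of both JCHAIN probe sets, 1.68 without anti-CD8, counted at the dimmer one, which did not pass alone. For SIVE against control without anti-CD8, 1652 probe sets were called, against 3197 from every array and 4428 with a quality weight for each animal. The count was 2694 with the 3′ signal as covariate and 2512 without the 3 animals of high 3′ signal. Shifting arrays to the same median gave 1385 higher and 263 lower, against 1235 and 417. With anti-CD8, 555 were called, against 1043 from every array, 979 from the second arrays, 135 with weights, 956 with the 3′ covariate, 205 without the 3 animals, 187 with age, and 355 (without SIVE 4) to 1661 (without Control 5) leaving out 1 animal. The split was 445 higher and 110 lower, and 499 and 45 after the median shift. Called members there (2) were 4 from every array, 1 with weights, 0 without the 3 animals, 1 with age, and 1 (without Control 9) to 4 (without SIVE 1) leaving out 1 animal. For anti-CD8 within SIVE (1 probe set) the counts were 1930 from every array, 0 from the second arrays, 3546 with weights, 0 without the 3 animals and 1 to 4 leaving out 1 animal. Within controls (0) they were 9 from every array, 284 from the second arrays, 1 after quantile scaling, and 0 to 5963 (without Control 9; 769 without Control 5), with 1 called member from the second arrays and 0 to 1 leaving out 1 animal. The GAPDH probe sets alone gave a 3′ difference of 0.138 (exact permutation p = 0.0559). Replicate numbers did not pair the animals (correlations of same-numbered animals -0.369 to 0.222). With the replicate number as a block the 5 counts were 531, 12, 2, 0 and 4, members called with anti-CD8 were 0, and the GZMB difference without anti-CD8 was 2.44 (limma adjusted p = 0.119). The causes were not tested.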
